A study of Nannochloropsis oceanica with 6 samples.

Results

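The genes described here are the ribosome assembly factors of Nannochloropsis oceanica, a single-celled alga of the sea that stores oil. They are the 85 gene models, of 10481 in the deposited tables, whose KEGG pathway annotation holds "Ribosome biogenesis in eukaryotes". The rule uses annotation and no measured value. Each model was placed in a stage by the factor its KEGG orthology entry names. By this placement 32 belong to the 90S particle and U3 processome, 9 to the box C/D and H/ACA particles, 15 to RNA cleavage and trimming, 20 to 60S maturation, 4 to late 40S maturation and 5 to export. The 85 models carry 57 orthology entries, and 18 of these entries have more than 1 model, 46 models in all.

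All cultures were strain IMET1, taken from logarithmic growth, washed with seawater and returned to fresh medium at an optical density of 2.5 under continuous light. Each was an 800 mL culture at 25 °C with 1.5% CO2 and light at 50 micromoles per square metre per second. In the nitrogen-replete group (NR, 3 cultures) the medium was f/2, with nitrate. In the nitrogen-deprived group (ND, 3 cultures) it was f/2 without nitrogen. RNA was taken after 72 h, so the comparison covers a single time point. Transcripts were measured by RNA sequencing of total RNA, with 1 library for each numbered replicate. Each replicate is called a culture here, but the counts cannot tell separate cultures from technical repeats. All 6 cultures were inoculated from cells of the same growth. The p-values therefore measure the spread between libraries, at most that between cultures started side by side.

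Ribosomes are assembled in the nucleolus from ribosomal RNA and ribosomal proteins. RNA polymerase I makes a long precursor, on which the U3 small nucleolar RNA and its proteins build the 90S particle, or small-subunit processome. Box C/D particles guide 2'-O-methylation of the RNA and H/ACA particles guide its conversion of uridine to pseudouridine. Nucleases then cut and trim the precursor, GTPases and AAA ATPases remodel the large-subunit particle, and export receptors carry both subunits to the cytoplasm, where the last factors are released. In yeast and plants, ribosome production is known to depend on nutrient supply.

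Library totals ran from 3972986 to 5693513 estimated counts. As a check of the labels, the nitrate transporter gene NRT2.1 (NO14G02450) had 89.1 to 99.2 CPM (normalised counts) in NR and 1401 to 1462 in ND, and the nitrate reductase gene NIA (NO14G02460) had 25.9 to 33.8 in NR and 658 to 673 in ND. CPM here are estimated counts scaled to a common library total and to trimmed-mean (TMM) factors. Those factors were 0.89 to 0.908 in NR and 1.111 to 1.123 in ND, so the scaling bears on every direction given here. With TMM factors the median log2 change of all 9329 genes tested was 0.02, and with library totals alone it was 0.34, a shift of 0.32. RNA per cell was not measured, so a change in the amount of transcript per cell cannot be told apart from a change in its share of the RNA.

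By the number of calls and the median change, the assembly factors were higher in ND. The most abundant members in NR, ranked by TPM below, were called lower with TMM factors. Of the 82 members tested, 55 rose and 14 fell by edgeR's quasi-likelihood test (Benjamini-Hochberg adjusted p under 0.05), and 13 did not pass. Over all genes tested, 71.2% passed, 35.7% as higher and 35.5% as lower, against 67.1% and 17.1% of the members. The median log2 change of the members was 0.55. A call together with a change of at least 2 times was made for 22 members as higher and for 0 as lower, where all genes gave 9.39% and 12.5%. The 0 members called lower by at least 2 times stand beside the 14 called lower at any size. In 54 members every ND library lay above every NR library (37.2% of all genes), in 11 every ND library lay below (36.2%), and in 17 the groups overlapped.

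Levels within each library carry no trimmed-mean factor, and on that scale the median gene rose too. They are therefore not a second measure of the change given above with TMM factors. Members took 0.57% to 0.588% of the estimated counts in NR and 0.813% to 0.816% in ND. Their summed level was 4664 to 4891 TPM (a level per transcript length, as a share of each library) in NR and 7037 to 7174 in ND. The median member stood at 27.2 to 31.3 TPM in NR, below the 33.6 to 34.0 of the median gene. In ND the median member stood at 59.0 to 60.4 TPM, above the 44.9 to 45.3 of the median gene. These groups of libraries do not overlap.

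**Figure D1:**
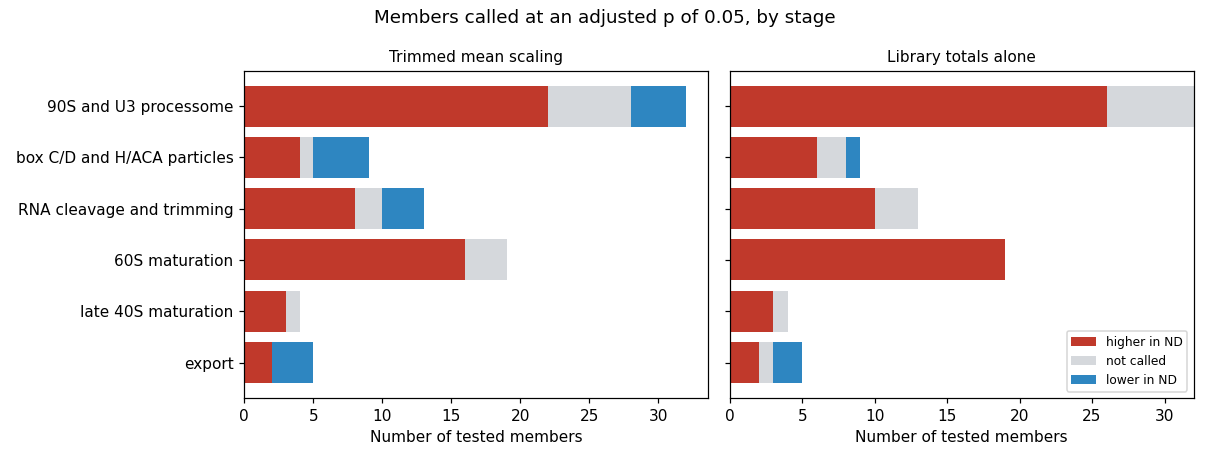
Number of tested members called higher (red), lower (blue) or not called (grey) in ND at an adjusted p of 0.05, by stage, with trimmed-mean factors (left) and with library totals alone (right). Lower calls number 14 at left and 3 at right, while 55 higher calls at left become 66 at right.

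How many members count as lower depends on the scaling. With upper-quartile factors 58 members were higher and 8 lower, with RLE (median-ratio) factors 53 and 14, and with library totals alone 66 and 3. Library totals alone called 54.4% of all genes higher and 23.0% lower. The median log2 change of all genes was 0.13 with upper-quartile factors and 0.009 with RLE factors. No member called higher changed direction under these 3 scalings, and 53 of the 55 kept their call under each. The 2 that lost it are the processome protein NAN1/WDR75 and the kinase RIOK2, both with RLE factors. Of the 14 lower calls, 3 held under each scaling, namely the export receptor XPO1 (NO05G03370), the export adaptor NMD3 (NO05G04710) and, less firmly, the pseudouridine synthase DKC1, which lost its call with limma on FPKM. With library totals alone, 9 had no call and 2, NOP56 and XRN1 (NO15G00250), were called higher. Of the 13 members that did not pass with TMM factors, 9 were called higher with library totals alone, namely UTP4, UTP21, IMP3, RCL1, fibrillarin, RPP30, SBDS, NUG2 and the AFG2 model NO19G01920. DESeq2 lost the calls of 8 members, namely RRP7, the AFG2 model NO09G00470, RIOK2, NAN1, UTP18, GAR1, the PWP2 model NO01G04250 and the RIX7 model NO27G00850 (adjusted p 0.069 to 0.159).

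**Figure D2:**
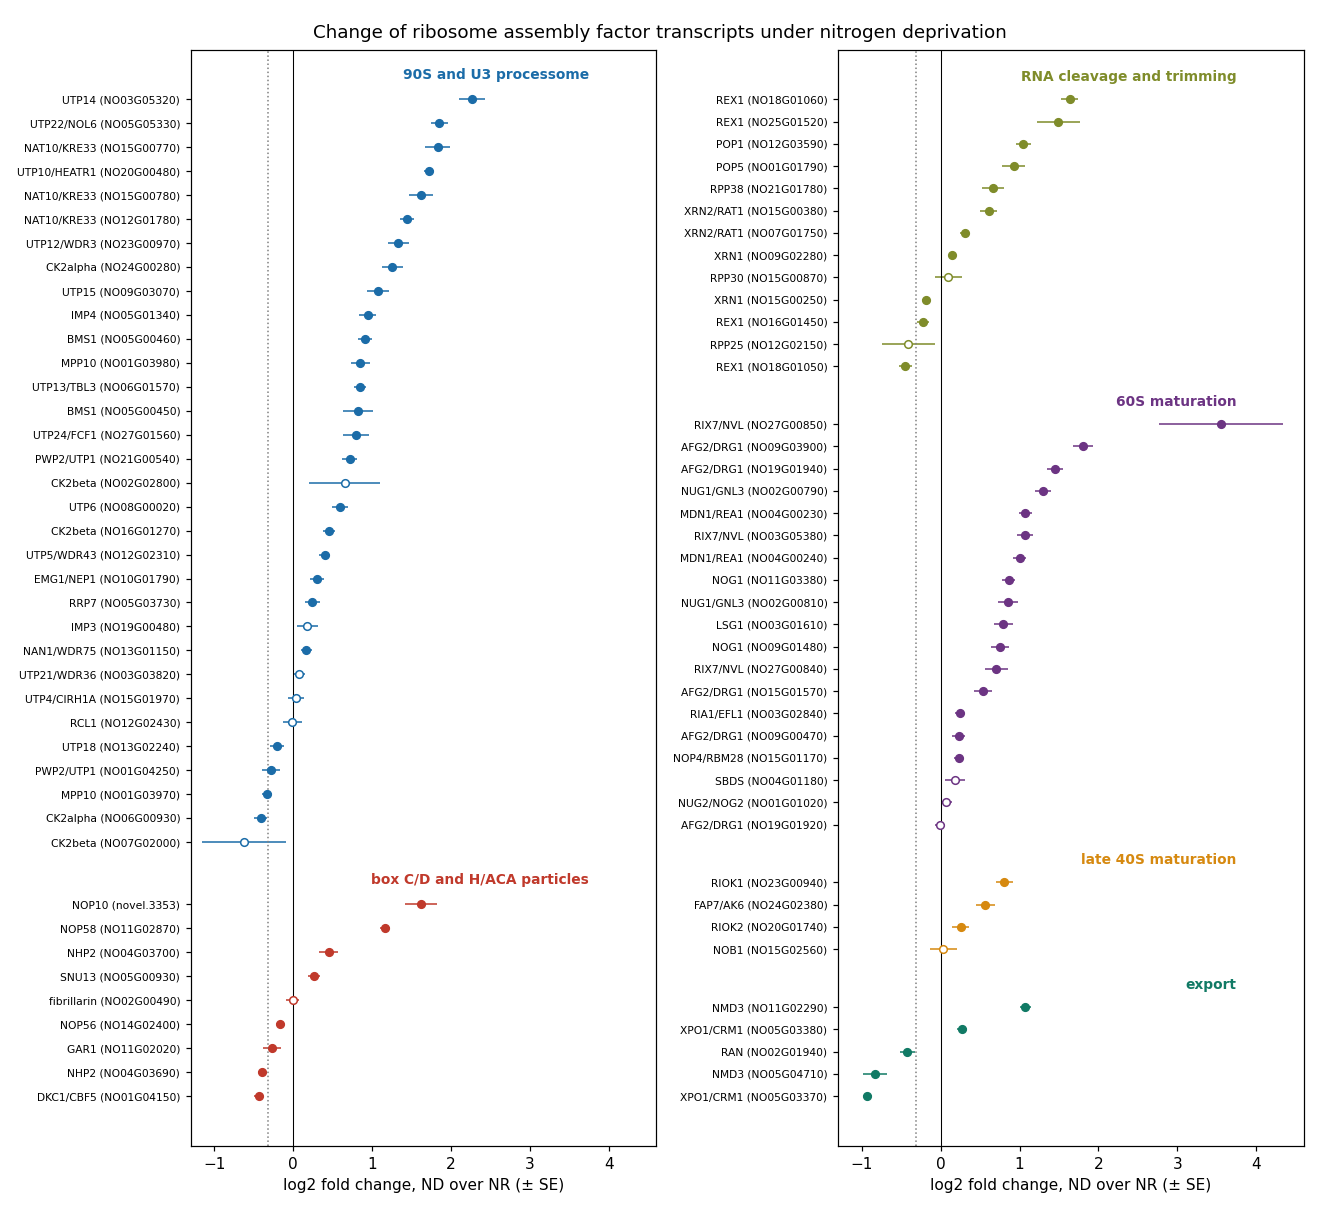
Log2 change (ND over NR, TMM factors) of the 82 tested members by stage, with the standard error as a bar; filled points passed the test and hollow points did not. The solid line marks 0 and the dotted line marks where 0 would lie with library totals alone, 0.32 lower, and the members of 60S maturation run from -0.01 to 3.55.

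The stages differed in their counts. Over all genes 35.7% were higher and 35.5% lower, or 54.4% and 23.0% with library totals alone. In the 90S particle and U3 processome 22 members rose, 4 fell and 6 did not pass, with a median log2 change of 0.68, and library totals alone gave 26, 0 and a median of 1.00. In 60S maturation 16 rose, 0 fell and 3 did not pass, with a median of 0.79, and with library totals alone 19 rose. At an unadjusted p under 0.05 the number of 60S members that were lower was also 0 with edgeR, and DESeq2 and limma on FPKM likewise called 0. In cleavage and trimming 8 rose and 3 fell (median 0.30), in late 40S maturation 3 rose and 0 fell (0.41), in the box C/D and H/ACA particles 4 rose and 4 fell (-0.01), and in export 2 rose and 3 fell (-0.42). The differences between stages were not tested. The medians of all stages move with the scaling. With library totals alone they were 1.11 in 60S maturation, 0.62 in cleavage and trimming, 0.73 in late 40S maturation, 0.31 in the box C/D and H/ACA particles and -0.11 in export.

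In the processome, UTP10/HEATR1 (NO20G00480), a large scaffold of the UTPA subcomplex that binds the start of the precursor, had the smallest p-value of all members. It had 70.9, 72.1 and 67.7 CPM in NR and 222, 246 and 226 in ND. Every ND library lay above every NR library, and the gene rose 3.29-fold (log2 change 1.72 ± 0.07 SE, edgeR adjusted p 3.54e-15). UTP22/NOL6 (NO05G05330), a component of the UTPC subcomplex, had 16, 17.9 and 16.1 CPM in NR and 57.5, 64.3 and 58.2 in ND. Its log2 change was 1.85 ± 0.11 (edgeR adjusted p 5.19e-12), again with no overlap.

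NAT10/KRE33, the acetyltransferase that modifies cytidines of the small-subunit RNA, has 3 models and all rose. NO12G01780 had 41.1, 38.8 and 36.3 CPM in NR and 115, 103 and 100.01 in ND, a log2 change of 1.44 ± 0.09 (edgeR adjusted p 6.42e-12). The neighbours NO15G00770 and NO15G00780 rose by 1.83 ± 0.16 and 1.62 ± 0.15. UTP14 (NO03G05320), which activates the helicase DHR1 in yeast, had 6.16, 7.70 and 11.1 CPM in NR and 36.8, 39.0 and 42.6 in ND. This was the largest rise among processome members, with a log2 change of 2.26 ± 0.16 (edgeR adjusted p 1.37e-10).

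Each processome subcomplex held members that rose and members that did not pass or fell. In UTPA, UTP15 (NO09G03070) rose by 1.07 ± 0.14 and UTP5/WDR43 (NO12G02310) by 0.40 ± 0.07. The call of NAN1/WDR75 (NO13G01150), 0.17 ± 0.07, was lost without NR culture 1 or 3 or ND culture 1 or 2 (adjusted p 0.0525 to 0.164). A replicate block in the edgeR fit ended that call too (adjusted p 0.0514). UTP4/CIRH1A (NO15G01970) did not pass, with 65.3, 68.5 and 81.8 CPM in NR and 62.0, 74.9 and 82.2 in ND. Its groups overlap, and with library totals alone it was called higher, by 0.35.

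In UTPB, a subcomplex made mostly of WD40 repeat proteins, UTP12/WDR3 (NO23G00970) rose by 1.33 ± 0.13, UTP13/TBL3 (NO06G01570) by 0.84 ± 0.07 and a model of PWP2/UTP1 (NO21G00540) by 0.71 ± 0.10. UTP6 (NO08G00020) rose by 0.59 ± 0.10, but its Swiss-Prot name is that of a metabolite repair enzyme, so its identity rests on the orthology entry. UTP21/WDR36 (NO03G03820) did not pass, at 84.1 to 88.0 CPM in NR and 86.1 to 95.3 in ND, but was called higher with upper-quartile factors (0.18) and library totals alone (0.39).

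The 2 lower calls of UTPB were weak. UTP18 (NO13G02240) had 91.4, 74.8 and 76.6 CPM in NR and 69.2, 75.4 and 66.4 in ND. The groups overlap, and its log2 change of -0.21 ± 0.09 (edgeR adjusted p 0.038) was 0.11 with library totals alone. The call was also lost without NR culture 1, ND culture 1 or ND culture 3 (adjusted p 0.081 to 0.286), and with a replicate block (0.0522). The second PWP2 model, NO01G04250, had 40.1, 33.0 and 42.4 CPM in NR and 33.9, 30.3 and 31.0 in ND. Its log2 change was -0.28 ± 0.11 (edgeR adjusted p 0.0305), and 0.03 with library totals alone. It lost its call without NR culture 1 or 3 or ND culture 2 or 3 (adjusted p 0.0762 to 0.134), and its other annotations name a splicing protein and a nuclear distribution protein.

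UTPC contains casein kinase 2. Its catalytic subunit CK2alpha has a minor and a major model that moved apart with TMM factors. NO24G00280 had 14, 13.5 and 15.5 CPM in NR and 32.3, 37.7 and 32.6 in ND, a rise of 1.25 ± 0.13 (edgeR adjusted p 5.05e-08). NO06G00930 had 146, 134 and 113 CPM in NR and 103, 95.8 and 97.8 in ND. It fell by 0.41 ± 0.08 (edgeR adjusted p 9.3e-05), and by 0.10 with library totals alone, where it had no call. The regulatory subunit CK2beta has 3 models, of which NO16G01270 rose by 0.45 ± 0.08 and the other two did not pass. One of those, NO07G02000, had 14.8, 0 and 9.71 CPM in NR and 2.67, 6.68 and 6.42 in ND. Its log2 change of -0.63 ± 0.53 became a lower call without NR culture 2 (-1.19, adjusted p 0.00256) and changed sign without NR culture 1 (0.15). RRP7 (NO05G03730), a partner of UTP22, rose by 0.24 ± 0.09, a call lost without ND culture 1 (adjusted p 0.112).

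The MPP10 complex joins U3 to the processome. IMP4 (NO05G01340) rose by 0.94 ± 0.11, while IMP3 (NO19G00480) did not pass at 21.7 to 31.6 CPM in NR and 27.5 to 33.5 in ND, and was called higher, by 0.49, with library totals alone. The 2 models of MPP10 itself are neighbours that share reads. NO01G03980 rose by 0.85 ± 0.12. NO01G03970 had 139.9, 130.1 and 130.4 CPM in NR and 108, 102 and 108 in ND. It fell by 0.33 ± 0.06 (edgeR adjusted p 9.92e-05), and by 0.02 with library totals alone, where it had no call. The Swiss-Prot name of NO01G03970 is a rhamnosidase, an enzyme of sugar breakdown.

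The remaining processome factors rose with 1 exception. The GTPase BMS1 rose in both models (0.91 ± 0.09 in NO05G00460, 0.82 ± 0.19 in NO05G00450), as did the nuclease UTP24/FCF1 (NO27G01560), which cuts the precursor, by 0.79 ± 0.16. The methyltransferase EMG1/NEP1 (NO10G01790) rose by 0.30 ± 0.09. RCL1 (NO12G02430), a cyclase-like partner of BMS1, did not pass at 30.8 to 42.8 CPM in NR and 34.9 to 36.3 in ND, a log2 change of -0.01 ± 0.12 that was 0.31 with library totals alone.

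Several of the members with the highest TPM are proteins of the small nucleolar particles. The box C/D core has 4 proteins, namely the methyltransferase fibrillarin, the scaffold proteins NOP56 and NOP58, and SNU13, which binds the RNA's kink-turn. NOP58 (NO11G02870) had 69.2, 76.5 and 74.6 CPM in NR and 173, 158 and 162 in ND. It rose 2.24-fold (log2 change 1.16 ± 0.07, edgeR adjusted p 4.79e-12). Its paralogue NOP56 (NO14G02400) had 397, 379 and 372 CPM in NR and 352, 338 and 334 in ND. The groups do not overlap, and NOP56 fell by 0.17 ± 0.05 (edgeR adjusted p 0.00519) with TMM factors but was called higher, by 0.15, with library totals alone.

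SNU13 (NO05G00930) rose by 0.26 ± 0.08. Fibrillarin (NO02G00490) did not pass, with 67.7 to 80.0 CPM in NR and 68.6 to 75.6 in ND, a log2 change of -0.01 ± 0.08 that was 0.31, and called, with library totals alone. With TMM factors 2 of the 4 core transcripts rose, 1 fell and 1 did not pass, whereas with library totals alone all 4 were called higher.

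In the H/ACA core, DKC1/CBF5 is the pseudouridine synthase, NOP10 and GAR1 support its active site, and NHP2 binds the RNA. NOP10, a model added to the annotation, had 5.66, 4.40 and 7.49 CPM in NR and 19.9, 17.1 and 17.2 in ND. It rose 3.08-fold (log2 change 1.62 ± 0.20, edgeR adjusted p 5.04e-07). DKC1 (NO01G04150) had 308, 319.9 and 286 CPM in NR and 219, 237 and 219 in ND. It fell by 0.44 ± 0.06 (edgeR adjusted p 7.23e-07), and by 0.12 with library totals alone (adjusted p 0.0481), and with limma on FPKM the call was lost (adjusted p 0.122).

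NHP2 has 2 neighbouring models with shared reads. The major model NO04G03690 had 646, 643 and 731 CPM in NR and 526, 518 and 490.4 in ND. It fell by 0.40 ± 0.05 (edgeR adjusted p 1.27e-06), and by 0.08 with library totals alone, where it had no call. The minor model NO04G03700 rose by 0.45 ± 0.12, with 31.8, 32.7 and 44.7 CPM in NR and 43.1, 53.8 and 50.7 in ND, groups that overlap. GAR1 (NO11G02020) had 38.2, 46.2 and 56.3 CPM in NR and 36.8, 39.5 and 39.8 in ND. Its log2 change was -0.27 ± 0.12 (edgeR adjusted p 0.046), and 0.05 with library totals alone. That call was lost when any culture other than NR culture 1 was left out (adjusted p 0.0683 to 0.364).

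**Figure D3:**
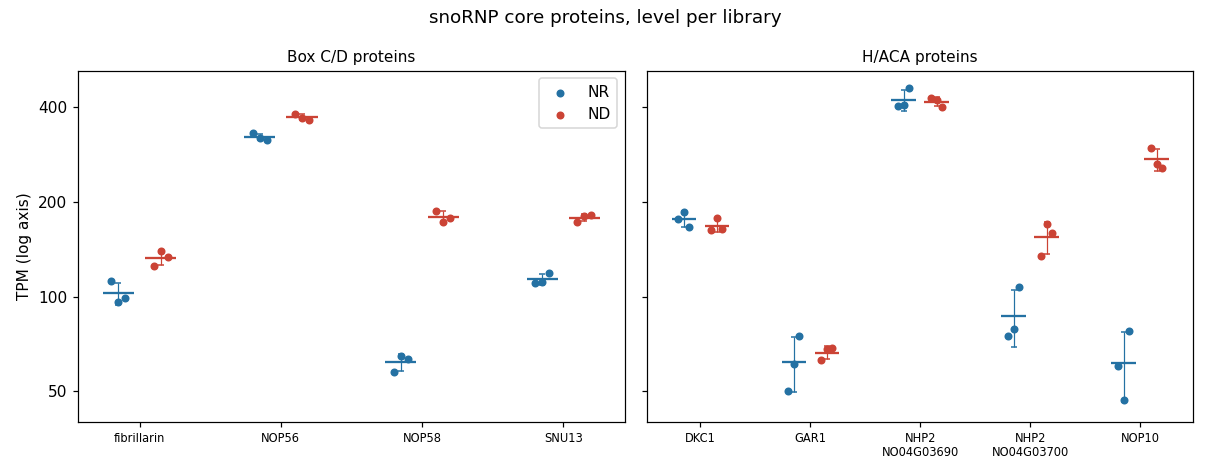
TPM per library (log axis) of the box C/D (left) and H/ACA (right) core proteins in NR (blue) and ND (red); lines are means and bars are SD over 3 cultures. NOP58 and NOP10 stand clear of their NR levels, whereas NOP56 moves from a mean of 320.8 to 369.9 TPM and DKC1 from 176.4 to 167.8.

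On the TPM scale, which carries no trimmed-mean factor, the members can also be ranked by level. In NR the 5 highest members were the GTPase RAN at 467 ± 78.9 TPM (SD, n = 3), NHP2 (NO04G03690) at 420.7 ± 32.1, NOP56 at 320.8 ± 8.12, XPO1 (NO05G03370) at 270.0 ± 8.32 and DKC1 at 176.4 ± 9.83. In ND they were RAN at 463.6 ± 42.0, NHP2 at 415.0 ± 13.9, NOP56 at 369.9 ± 8.03, NOP10 at 272.1 ± 21.7 and the methyltransferase EMG1 at 240.0 ± 9.26. RAN and NHP2 overlap in NR and not in ND, where RAN had 437.7 to 512 TPM and NHP2 had 399.5 to 426.5. NOP10 stood at 61.7 ± 15.3 TPM and EMG1 at 146.0 ± 9.70 in NR. The 5 highest members in NR were all called lower with TMM factors. With library totals alone XPO1 and DKC1 were lower, NOP56 was higher, and RAN and NHP2 had no call. The NOP10 model is only 385 bases long, so its rank by TPM depends on the length correction.

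Cleavage and trimming of the RNA involves RNase MRP, which shares its proteins with the tRNA-processing RNase P, and exonucleases. POP1 (NO12G03590), the large scaffold of RNase MRP, had 28.6, 28.6 and 25.2 CPM in NR and 56.7, 55.9 and 58.2 in ND. It rose 2.07-fold (log2 change 1.05 ± 0.10, edgeR adjusted p 5.43e-09). POP5 (NO01G01790), a smaller subunit, had 14.5, 17.1 and 22.2 CPM in NR and 37.4, 34.5 and 30.5 in ND, a rise of 0.93 ± 0.15 (edgeR adjusted p 9.99e-06). RPP38 (NO21G01780) rose by 0.67 ± 0.14, and RPP30 (NO15G00870) did not pass at 12.1 to 17.0 CPM in NR and 13.9 to 16.4 in ND, and was called higher, by 0.42, with library totals alone. Of 3 models of RPP25, 1 did not pass and 2 were too low to test.

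The nuclear exonuclease XRN2/RAT1 trims 5' ends of the precursor. Its major model NO07G01750 had 178, 175 and 175 CPM in NR and 221, 216 and 216 in ND. Despite a small spread the change was modest, a rise of 0.30 ± 0.05 (edgeR adjusted p 3.5e-05), and NO15G00380, which has this orthology entry but the Swiss-Prot name of XRN1, rose by 0.61 ± 0.11. XRN1, in yeast the cytoplasmic exonuclease of messenger RNA decay, moved little. Its model NO15G00250 had 254, 267 and 243 CPM in NR and 229.7, 226 and 214 in ND, and fell by 0.19 ± 0.05 (edgeR adjusted p 0.00451) with TMM factors but was called higher, by 0.13, with library totals alone. The other XRN1 model, NO09G02280, rose by 0.15 ± 0.05.

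REX1, a 3' exonuclease annotated here with names of plant small RNA degrading nucleases, has 4 models, of which 2 rose and 2 fell. NO18G01060 had 19.0, 26.7 and 28.0 CPM in NR and 76.8, 79.0 and 71.8 in ND, a rise of 1.64 ± 0.11 (edgeR adjusted p 5.12e-11). NO25G01520 rose by 1.49 ± 0.27 from a low level. NO18G01050, which neighbours NO18G01060 and shares reads, had 82.7, 67.4 and 72.7 CPM in NR and 55.3, 55.2 and 53.4 in ND. It fell by 0.45 ± 0.09 (edgeR adjusted p 0.000104), and by 0.13 with library totals alone, where it had no call. NO16G01450 had 85.4, 87.7 and 98.2 CPM in NR and 75.0, 78.7 and 78.6 in ND. Its log2 change of -0.22 ± 0.07 (edgeR adjusted p 0.0126) was 0.10 with library totals alone, and the call was lost without NR culture 3 (adjusted p 0.0718).

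In 60S maturation no member fell. AFG2/DRG1, the AAA ATPase that releases early shuttling factors from the exported large subunit in yeast, has 5 models by orthology entry. Of these, NO09G03900, NO15G01570 and NO09G00470 carry Swiss-Prot names of CDC48 homologues, a related AAA ATPase, so their identity rests on that entry. NO19G01940 had 34.2, 31.1 and 25.2 CPM in NR and 89.2, 78.5 and 81.9 in ND, a rise of 1.45 ± 0.10 (edgeR adjusted p 7.12e-11). NO09G03900 had 12.8, 11.6 and 11.1 CPM in NR and 41.9, 39.3 and 42.9 in ND. It rose 3.49-fold (log2 change 1.80 ± 0.13, edgeR adjusted p 1.02e-10). NO15G01570 rose by 0.54 ± 0.11, and NO09G00470 by 0.23 ± 0.08, a call lost without NR culture 1 or ND culture 3 (adjusted p 0.0544 to 0.0638). NO19G01920 did not pass, with a mean of 137 ± 2.60 CPM in NR and 136 ± 9.34 in ND (SD, n = 3), though with library totals alone it was called higher, by 0.31.

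MDN1/REA1 is a very large AAA ATPase that pulls assembly factors off the large-subunit precursor. Its model NO04G00230 had 40.6, 41.0 and 48.0 CPM in NR and 87.9, 90.1 and 93.9 in ND, a rise of 1.07 ± 0.08 (edgeR adjusted p 5.17e-10). The neighbouring MDN1 model NO04G00240 rose by 1.00 ± 0.08, the same within these errors. The GTPase NUG1/GNL3 (NO02G00790, also annotated as NIP7) had 31.0, 36.9 and 27.2 CPM in NR and 71.1, 80.7 and 81.2 in ND. It rose by 1.30 ± 0.10 (edgeR adjusted p 5.27e-10), and NO02G00810 rose by 0.86 ± 0.13.

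Most other large-subunit GTPases rose as well. NOG1 rose by 0.86 ± 0.08 in NO11G03380 and by 0.75 ± 0.12 in NO09G01480, and LSG1 (NO03G01610), which acts with NMD3 in the cytoplasm, rose by 0.79 ± 0.12. RIA1/EFL1 (NO03G02840), which removes the anti-association factor TIF6, rose by 0.24 ± 0.06, and its partner SBDS (NO04G01180) did not pass at 21.7 to 25.0 CPM in NR and 24.1 to 29.0 in ND, a change of 0.19 ± 0.13 that was called with upper-quartile factors (0.30) and library totals alone (0.50). NUG2/NOG2 (NO01G01020) did not pass either, at 93.8 to 96.6 CPM in NR and 94.7 to 106 in ND, but was called higher with upper-quartile factors (0.18) and library totals alone (0.39). The RNA-binding protein NOP4/RBM28 (NO15G01170) rose by 0.23 ± 0.06.

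RIX7/NVL, another AAA ATPase of the early large-subunit particle, holds the largest fitted change of the tested members, at low counts. NO27G00850, whose Swiss-Prot name is a CDC48 homologue, had 0, 0 and 1.66 CPM in NR and 2.26, 4.15 and 12.4 in ND, with shared reads. Its log2 change was 3.55 ± 0.79 (edgeR adjusted p 0.00047), but DESeq2 gave an adjusted p of 0.069. NR culture 3 held its only NR counts, so without that culture no fold can be read, and without ND culture 3 the log2 change was 2.54. Its neighbour NO27G00840, which has the same Swiss-Prot name, rose by 0.71 ± 0.15, and the summed pair rose by 0.91 ± 0.12. The identity of both as RIX7 rests on the orthology entry. NO03G05380 rose by 1.07 ± 0.10. NO03G05370 was too low to test, with 1, 4 and 5 estimated counts in NR and 6, 7 and 8 in ND.

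Late 40S maturation held 4 members. RIOK1 (NO23G00940), a kinase needed for the last cut of the small-subunit RNA, had 39.2, 30.8 and 46.6 CPM in NR and 67.6, 67.5 and 69.0 in ND. It rose by 0.81 ± 0.11 (edgeR adjusted p 1e-06). The adenylate kinase FAP7/AK6 (NO24G02380) had 19.7, 21.2 and 23.6 CPM in NR and 33.1, 31.8 and 30.7 in ND, a rise of 0.57 ± 0.12 (edgeR adjusted p 0.000318). Both groups of values are separate.

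RIOK2 (NO20G01740), the related kinase, had 31.5, 28.1 and 31.6 CPM in NR and 37.6, 34.5 and 36.8 in ND. The rise of 0.25 ± 0.11 (edgeR adjusted p 0.0409) was lost with RLE factors (adjusted p 0.0533) and without NR culture 1 or 2 or ND culture 1 or 3 (adjusted p 0.0544 to 0.143). NOB1 (NO15G02560), the nuclease that makes that last cut, had 24.1, 17.1 and 27.5 CPM in NR and 20.1, 20.6 and 29.0 in ND. These overlap, and the log2 change was 0.03 ± 0.17 (edgeR adjusted p 0.868).

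Export was the stage with the clearest falls. XPO1/CRM1 is the exportin that carries both subunits, as well as many proteins, out of the nucleus. Its major model NO05G03370 had 649, 674 and 673 CPM in NR and 374, 354 and 322 in ND. This was the largest fall among the 82 tested members, by 0.93 ± 0.05 on the log2 scale (edgeR adjusted p 3.19e-12), and by 0.61 with library totals alone. The neighbouring model NO05G03380 rose by 0.27 ± 0.06, with 162, 145 and 161 CPM in NR and 185, 180.1 and 200.02 in ND.

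NMD3 is the adaptor that links the large subunit to XPO1. NO11G02290 had 55.9, 54.2 and 55.2 CPM in NR and 119, 115 and 114 in ND, a 2.10-fold rise (log2 change 1.07 ± 0.07, edgeR adjusted p 3.64e-11). NO05G04710 had 22.2, 22.8 and 28.6 CPM in NR and 13.8, 12.5 and 14.9 in ND. It fell by 0.83 ± 0.15 (edgeR adjusted p 5.51e-05), and by 0.52 with library totals alone, still a call. RAN (NO02G01940), the GTPase that gives transport its direction, had 110.3, 114 and 149 CPM in NR and 87.9, 101 and 88.1 in ND. It fell by 0.42 ± 0.09 (edgeR adjusted p 0.000453), and by 0.11 with library totals alone, where it had no call.

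**Figure D4:**
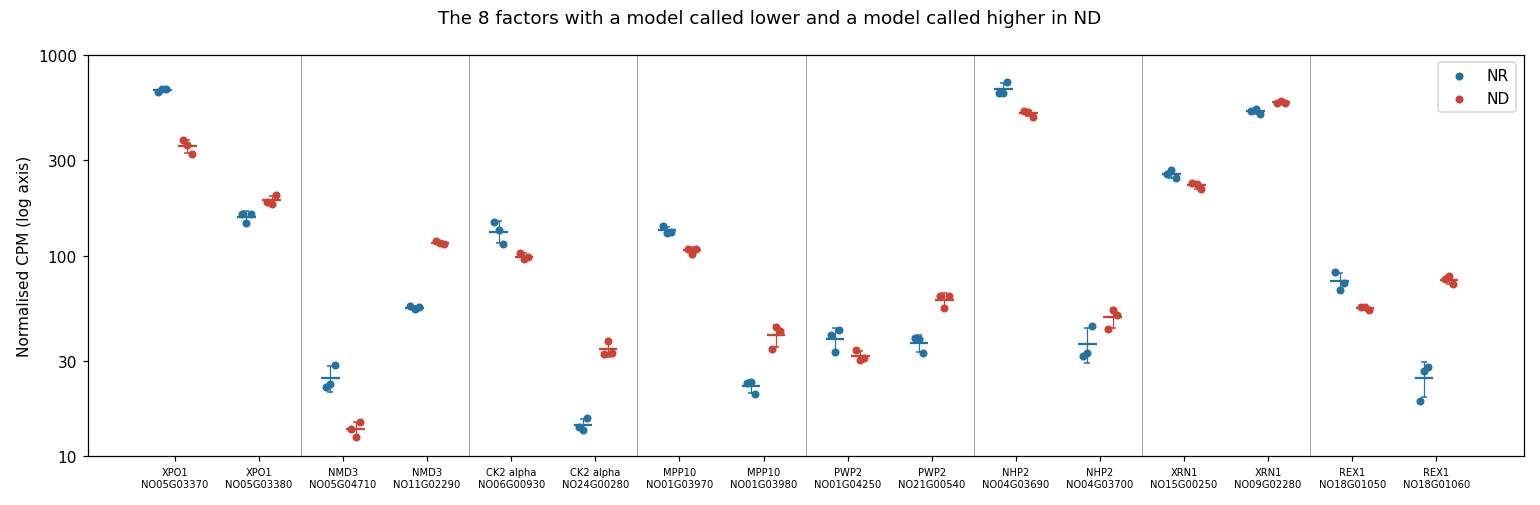
Normalised CPM per library (log axis) in NR (blue) and ND (red) for factors with a model called lower and a model called higher with TMM factors; lines are means and bars are SD over 3 cultures, and REX1 is shown by 2 of its 4 models. In XPO1 and CK2alpha the abundant model fell and the scarcer one rose, and in NMD3 the abundant model rose.

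With TMM factors, 8 factors had models called in opposite directions, namely XPO1, NMD3, CK2alpha, MPP10, PWP2, NHP2, XRN1 and REX1. In 6 of these 8 the lower call was lost, or turned to higher in XRN1, with library totals alone, and XPO1 and NMD3 are the exceptions. Some of these models are neighbours by gene ID and share reads, so estimated counts may be divided between them. When the 11 neighbouring pairs of a factor were summed before the fit, a step chosen after the data were seen, 8 sums rose, 2 fell and 1 did not pass. The pairs of NUG1 (NO02G00790 and NO02G00810) and AFG2 (NO19G01920 and NO19G01940) skip an ID position, so they are close but not directly adjacent. The XPO1 sum fell by 0.61 ± 0.05 (by 0.29 with library totals alone). The NHP2 sum fell by 0.34 ± 0.05 (by 0.02 with library totals alone, with no call), and the MPP10 sum, at -0.09 ± 0.06, did not pass. The REX1 pair summed to a rise of 0.40 ± 0.07. NMD3, CK2alpha, PWP2 and XRN1 are not neighbours, and both models of NMD3, CK2alpha and PWP2 had whole counts in every library.

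**Figure D5:**
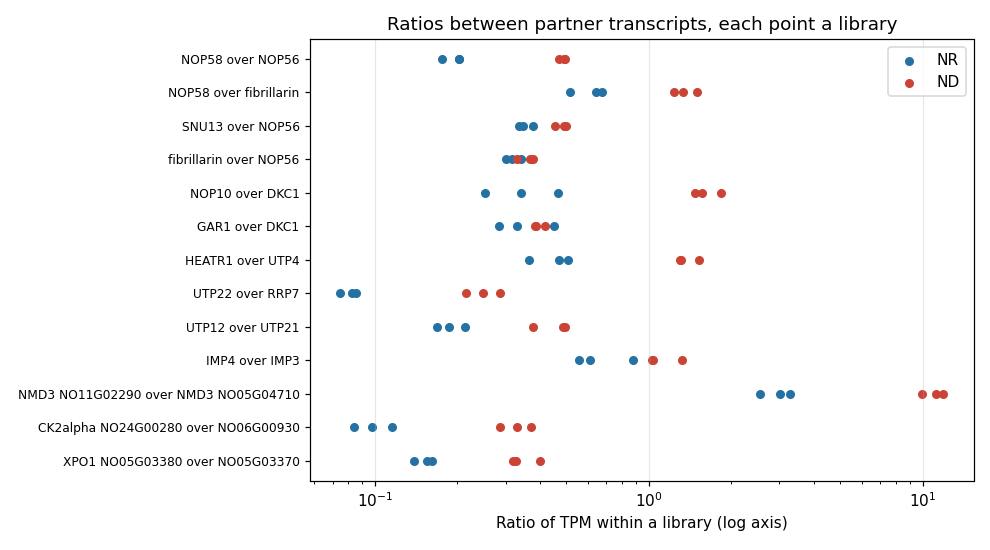
Ratio of TPM between partner transcripts or between models of a factor, within each library (log axis), in NR (blue) and ND (red), 3 libraries each. The points of the groups are separate in 11 of the 13 ratios, and overlap for fibrillarin over NOP56 and GAR1 over DKC1.

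A ratio within a library does not depend on the scaling between libraries, and shows unequal change only. Of 13 such ratios, chosen after the values were seen, 11 had separate groups. NOP58 over NOP56 was 0.175, 0.203 and 0.202 in NR and 0.494, 0.468 and 0.488 in ND. NOP10 over DKC1 was 0.342, 0.253 and 0.466 in NR and 1.83, 1.48 and 1.57 in ND. The crossing of 1 holds on the TPM scale only, as DKC1 had the higher CPM in both groups. The NOP10 model is 385 bases long and the DKC1 model 2777, so this ratio depends on the length correction within TPM. HEATR1 over UTP4 had a mean of 0.447 ± 0.07 in NR and 1.37 ± 0.12 in ND (SD, n = 3), and UTP22 over RRP7 had 0.0809 ± 0.005 and 0.25 ± 0.04.

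The ratio of the NMD3 models was 2.95 ± 0.38 in NR and 11 ± 1.01 in ND, and the minor over the major model was 0.0987 ± 0.016 and 0.329 ± 0.04 for CK2alpha and 0.151 ± 0.012 and 0.349 ± 0.04 for XPO1. Since the pairs were chosen with their changes in view, these ratios are a description. With so few libraries an exact permutation test cannot give a p-value under 0.1, so it could not decide any of them. Fibrillarin over NOP56 (0.319 ± 0.02 and 0.359 ± 0.03) and GAR1 over DKC1 (0.354 ± 0.09 and 0.396 ± 0.02) overlapped.

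Members differed from other genes in features that the rule did not use. Their median length was 2127 bases against 1766 over all genes, 60% had a single transcript against 63.8%, and 65.9% had whole estimated counts in every library against 76.7%, so shared reads were more frequent among them and the estimates of those members depend on how reads were divided. The 55 tested members with whole counts had 39 higher and 7 lower calls (median 0.67), and the 27 with shared reads had 16 and 7 (0.30). Of the tested members, 12 also belong to another KEGG pathway, with 7 higher and 5 lower calls (median 0.21), and 70 belong to this pathway alone, with 48 and 9 (0.69). These differences were not tested.

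The authors' deposited table lists 21 of the 85 members, 20 as higher and 1 as lower in ND. The same table lists 8.14% of all 10481 genes as higher and 11.5% as lower. The 1 listed as lower is a model of RPP25 (NO04G05160), with a log2 change of -4.232 and an FDR of 0.039 in the authors' deposited table. It was too low to test here, at 3.61, 2.90 and 2.57 estimated counts in NR and 0 in each ND library, and its reads are shared. The third RPP25 model, NO20G01590, had at most 1.14 estimated counts in any library.

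Assembly factors outside the KEGG pathway, matched by name, moved the same way more often than not. Of 32 tested, 26 rose, 1 fell and 5 did not pass, with a median log2 change of 0.60 (29 and 0 with library totals alone). All genes gave 35.7% higher and 35.5% lower, or 54.4% and 23.0% with library totals alone. The 3 of these 32 with the smallest p-values were the helicase dbp5 (NO09G00020), in yeast an export factor of messenger RNA, with a rise of 1.43 ± 0.10, the rRNA methyltransferase nop2 (NO25G00780), with 0.96 ± 0.07, and DHX37/DHR1 (NO17G00400), the helicase that UTP14 activates, with 1.13 ± 0.09. The 1 of the 32 that fell was the helicase HAS1 (NO06G00980), by 0.36 ± 0.05 and by 0.05 with library totals alone. NO22G00340, which rose, is WDR12 by Swiss-Prot name but WDR77 by orthology. When orthology names were matched too, a choice made after the data were seen, 40 of 50 rose and 3 fell (median 0.63). Some of these 50 carry Swiss-Prot names of other proteins, so not all need be assembly factors. Among them mfd, DNAJC5, rsmB and recG rose, while EIF4A3 and a transposon polyprotein did not pass. The smallest p-value was that of the helicase DDX31 (NO02G04430), with a rise of 1.34 ± 0.08. The falls then also include PES1 (NO03G01980), at -0.28 ± 0.07 (0.03 with library totals alone), and a model annotated as DBP2 (NO04G01350), at -0.51 ± 0.22 (-0.20), and none of the 3 was called lower with library totals alone.

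RNA polymerase I, which makes the precursor, had 4 subunits matched. Its largest subunits rpa1 (NO04G02950) and rpa2 (NO20G01850) rose by 1.03 ± 0.07 and 0.52 ± 0.07. The smaller rpa43 (NO12G00480) fell by 0.33 ± 0.11 (by 0.01 with library totals alone), and rpa12 (NO05G01720) did not pass at 0.44 ± 0.26. As context, 56 of 74 tested cytosolic ribosomal protein genes rose and 2 fell (median 0.43), against 35.7% and 35.5% of all genes. With library totals alone 71 rose and 0 fell, against 54.4% and 23.0% of all genes.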

How the data were processed

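RNA came from a Trizol extraction, and the library preparation is described only as Illumina's standard one, per the labels. The tools named in the submitters' processing notes are STAR, featureCounts, StringTie, Picard, Trim Galore and edgeR, without versions or roles. The genome build and the tool behind the estimated counts were not given in the sources read. Estimated counts per gene are as the authors deposited them, with no normalisation. TPM and FPKM per gene, and lengths in bases, come from the same deposited tables, per the file headers. The authors' deposited comparison, which lists part of the genes, holds FDR and p-value columns beside a log2 change.

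Estimated counts were rounded to whole numbers, filtered with filterByExpr and fitted in edgeR 4.0.16 under R 4.3.3 (TMM, quasi-likelihood F test, no replicate block, Benjamini-Hochberg threshold 0.05 over 9329 genes). SE is the absolute log2 change over the square root of F. A count was called whole within 0.005. Pairs of libraries of a condition differed beyond counting error (chi-square per degree of freedom 1.73 to 3.05), so none was a plain copy of another. This value cannot tell separate cultures from technical repeats, as library preparation and the division of shared reads can also raise it. The fit was also run on simulated counts with few changed genes, as many up as down. That simulation does not bear on the choice of scaling factors.

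Members, stages and lists were chosen with earlier results of these data known. All members could be named; values per library are given for the 4 smallest p-values of each stage and for all lower calls, and levels for the 5 highest members by TPM. Alternatives were a replicate block, RLE, upper-quartile or no scaling factors, DESeq2 1.42.0, limma 3.58.1 on log2(FPKM + 1) or log2(FPKM + 0.1), filters, an adjusted p of 0.01, whole counts only, and each library left out.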

Additional observations from a re-analysis of the deposited data

How the results depend on the processing

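Counts are as reported under TMM factors unless stated, and the cause of a change was not tested where no construction shows it. Upper-quartile factors, library totals alone and limma on FPKM moved the median of all genes up, to 0.13, 0.34 and 0.34 to 0.36, from 0.02.

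With upper-quartile factors, 8 members were called lower (1 in cleavage and trimming, 2 in the processome and 2 in the particles), and the medians were 0.66 over all members, 0.90 in 60S maturation, 0.41 in cleavage and trimming, 0.10 in the particles (reversed from -0.01) and 0.52 in late 40S maturation. With library totals alone, 3 members were lower (0 in cleavage, 0 in the processome, 1 in the particles), with medians of 0.87 over all, 1.11 in 60S maturation, 0.62 in cleavage, 1.00 in the processome, 0.31 in the particles (reversed), -0.11 in export and 0.73 in late 40S maturation, and 5075 and 2149 of all genes were higher and lower. Limma on log2(FPKM + 1) called 2 members lower (0 in cleavage, 0 in the processome, 0 in the particles), with medians of 0.79, 1.04, 0.61, 0.33 (particles, reversed), -0.0402 (export) and 0.73 (late 40S), and 5090 and 2031 of all genes. With log2(FPKM + 0.1) it called 2 members lower (0 in the same 3 stages), with medians of 0.89, 1.12, 0.62, 1.00 (processome), 0.34 (particles, reversed), -0.0403 and 0.76, and 5059 and 2019 of all genes.

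Restricting to genes with whole counts, which leaves 54 members, gave 7 lower calls and medians of 0.69 over all, 0.75 in 60S maturation, 0.80 in cleavage, 0.13 in the particles (reversed) and 0.53 in late 40S maturation, with 4 higher and 1 lower in cleavage, 2 lower in the processome, 2 lower in the particles and 1 higher in export. With neighbouring models summed, added after seeing the data, the medians were 0.40 over all, 0.75 in 60S maturation, 0.35 in cleavage and -0.0855 in the particles, with 1 export gene higher. A minimum of 10 CPM gave a cleavage median of 0.46. DESeq2 and an adjusted p of 0.01 each gave 2 lower calls in the processome.

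Single members that changed sign with library totals alone were NO01G04250 at 0.0327, NO02G00490 at 0.31, NO11G02020 at 0.0487, NO12G02430 at 0.31, NO13G02240 at 0.11, NO14G02400 at 0.15, NO15G00250 at 0.13, NO16G01450 at 0.10 and NO19G01920 at 0.31, and NO02G00490, NO12G02430, NO14G02400, NO15G00250 and NO19G01920 passed as higher. With log2(FPKM + 1) they were NO01G04250 at 0.0948, NO02G00490 at 0.33, NO07G02000 at 0.47, NO11G02020 at 0.0738, NO12G02430 at 0.34, NO13G02240 at 0.13, NO14G02400 at 0.17, NO15G00250 at 0.13, NO16G01450 at 0.12 and NO19G01920 at 0.30, and with log2(FPKM + 0.1) at 0.10, 0.34, 1.47, 0.076, 0.35, 0.13, 0.17, 0.13, 0.12 and 0.31. With upper-quartile factors NO02G00490 was at 0.10, NO12G02430 at 0.10 and NO19G01920 at 0.10.

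Leaving out 1 library gave 52 to 54 higher and 11 to 14 lower members, with medians of 0.48 to 0.60 over all, 0.78 to 0.85 in 60S maturation, 0.29 to 0.31 in cleavage, 0.64 to 0.70 in the processome, -0.053 to 0.0719 in the particles, -0.51 to -0.28 in export and 0.38 to 0.46 in late 40S maturation. It gave 2 to 5 lower in the processome, 2 to 3 in cleavage and 3 to 4 in the particles, 20 to 22 higher in the processome, 15 to 16 in 60S maturation and 2 to 3 in late 40S maturation, and 3091 to 3258 higher and 3149 to 3255 lower of all genes. Members that did not pass changed sign within -0.053 to 0.0719 (NO02G00490), -1.19 to 0.15 (NO07G02000), -0.10 to 0.15 (NO12G02430), -0.0659 to 0.14 (NO15G01970), -0.073 to 0.0207 (NO19G01920), -0.0001 to 0.26 (NO15G00870) and -0.17 to 0.18 (NO15G02560).

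Whether replicate numbers pair the cultures is not settled. Deviations of same-numbered libraries correlated weakly, at 0.019, 0.036 and 0.089, but 5 of 6 libraries correlated best with their own number. These values cannot exclude a weak pairing. A replicate block lost the calls of NAN1/WDR75 (adjusted p 0.0514) and UTP18 (0.0522) and moved NO12G02430 to 0.0008. Depth limits the members with the lowest counts, of which 3 could not be tested.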
